A study of Mus musculus with 2 samples.

Results

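The 43 collagen genes described here are the protein-coding genes of the deposited table whose symbol has the form of a collagen α chain (Col, a type number, a and a chain number), out of 22379 protein-coding genes and 37309 genes in all. They were grouped as 11 fibrillar genes, 9 basement membrane genes, 9 genes of fibril-associated collagens with interrupted triple helices (FACIT) and 14 others. The genes were chosen by name and not by their levels. Every one of the 43 has a coding transcript with uninterrupted Gly-X-Y triplets, the repeat that forms the collagen triple helix, when runs of at least 6 triplets are counted. The rule leaves out Col4a3bp, which is not a collagen.

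The study grew intestinal subepithelial myofibroblasts (ISEMFs), the contractile mesenchymal cells that lie under the gut epithelium, from the small intestine of wild type C57BL/6 mice. The supportive population came from neonates, 5 days old in the study's methods, and the non-supportive population from adult mice, 2 months old. The names tell how well the cells sustained intestinal epithelium in co-culture without added R-spondin, a Wnt agonist, where the non-supportive cells did so only weakly. In the study, adding R-spondin2 improved how efficiently crypts formed epithelial cultures with the non-supportive cells. Both populations were passaged and expanded in culture. RNA sequencing was done on 1 library of each population, so age and support cannot be told apart. The passage at which each was sequenced is not stated in the sources used here. The deposited data are labelled B19P16 for the supportive and B20P3 for the non-supportive library, and the meaning of P16 and P3 is not given. A difference in passage cannot be told apart from age and support either, and no difference between the populations has a replicate check.

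Collagens are trimers of α chains wound into a triple helix, hydroxylated and glycosylated in the endoplasmic reticulum, secreted, trimmed by proteinases and cross-linked outside the cell. Fibrillar types build the load-bearing fibrils of connective tissue, type IV builds the sheet-like network of basement membranes, and FACIT collagens decorate the surface of fibrils. In the gut wall, mesenchymal cells such as myofibroblasts and smooth muscle make most of the fibrillar collagen, and type IV collagen lies directly under the epithelium.

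Gene counts summed to 50674472 reads for supportive and 49615497 for non-supportive ISEMFs. Levels are given as RPKM, read counts scaled for exon length and library size, and differences as the ratio of the RPKM in supportive over that in non-supportive ISEMFs. Each ratio is followed by its 95% interval, computed from the reads by the exact Clopper-Pearson method, which covers counting error only. Log2 ratios were taken after adding 0.1 to each RPKM, which understates the difference of low genes, and a gene was called 2-fold different where this log2 ratio reached 1 in either direction and its RPKM reached 1 in either library. In bulk RNA, fewer cells that make a collagen and less RNA per cell cannot be told apart. Acta2, Vim, Tagln, Myl9 and Tpm2, the myofibroblast markers, were all expressed and within 2-fold, with a summed RPKM of 2071 in supportive and 3014 in non-supportive ISEMFs. Macrophage markers summed to an RPKM of 6.90 and 141, with 8 of 10 reaching an RPKM of 1 and all 8 called lower in supportive ISEMFs, and Tyrobp, Ptprc, Emr1 and Aif1 had no reads there. Smooth muscle markers summed to 357 and 593, with 3 of 5 lower, among them Des at 0.575 and 3.40. Among epithelial markers Epcam and Cdx2 had at most 5 reads, glial Sox10 none, and all 6 endothelial markers were under an RPKM of 1. Of the epithelial list, Lgr5 was called higher and Krt20 lower in supportive ISEMFs. Under an RPKM of 1, epithelial Cdh1 had 159 reads in supportive and 18 in non-supportive ISEMFs, and Krt18 had 0 and 19. The glial list had S100b higher, and the pericyte list summed to 5.18 and 5.68 with 1 of 2 expressed genes lower. The part of these cells in the collagen differences was not tested.

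Of the 43 collagen genes, 17 reached an RPKM of 1 in either library, and 8 of these were higher in supportive ISEMFs by at least 2-fold while 1 was lower. Among all 9110 protein-coding genes at that level, 9.25% were higher and 8.98% lower. Among the 1610 such genes that the deposited localization terms place in the secretory or extracellular space, 14.2% were higher and 11.8% lower. These terms are given to 28 of the 43 collagens. The 8 higher collagens were Col14a1, Col3a1, Col6a2, Col1a2, Col18a1, Col11a1, Col6a1 and Col8a1, and the lower one was Col12a1. The counting interval of each of these 9 lay wholly past 2-fold. The other 8 expressed collagens were within 2-fold on this scale, and their counting intervals did not hold a ratio of 1 either. By sign, 14 of 17 log2 ratios were positive, with a median of 0.96 that was the value of Col16a1, while the median over all 9110 protein-coding genes was -0.07 and over the secretory ones -0.04.

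**Figure D1:**
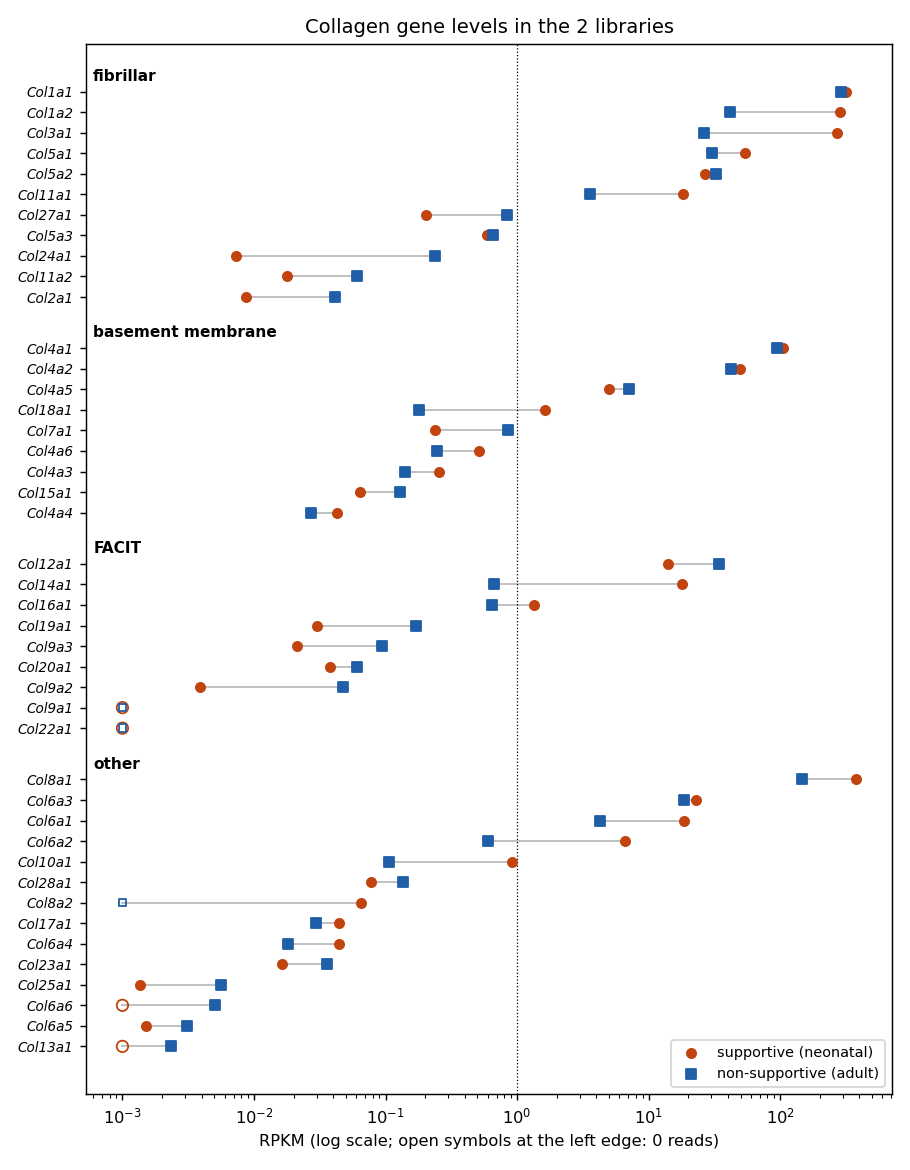
RPKM (log axis) of each of the 43 collagen genes in the library of supportive ISEMFs (circles) and of non-supportive ISEMFs (squares), grouped by class and joined by a line, with open symbols at the left edge for genes without reads and a dotted line at an RPKM of 1. The longest lines among genes right of the dotted line belong to Col14a1, Col3a1 and Col6a2. The circle and the square of Col1a1 nearly coincide, as do those of Col4a1.

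The RPKM of the 43 genes summed to 1597 in supportive and 777 in non-supportive ISEMFs, a 2.05-fold difference, and made 1.32% and 0.594% of the RPKM of all protein-coding genes. They took 1019500 reads, or 2.01% of those on genes, in supportive and 445016, or 0.897%, in non-supportive ISEMFs. The excess was carried by the fibrillar class, with a summed RPKM of 976 and 425 (2.30-fold), and by the other class, with 425 and 171 (2.49-fold). Within these classes the largest RPKM differences were those of Col1a2 (286 and 41.6), Col3a1 (272 and 26.4) and Col8a1 (376 and 147). Of the 6 expressed fibrillar genes 3 were within 2-fold, as was 1 of the 4 expressed genes of the other class. The basement membrane class was nearly level at 163 and 146 (1.11-fold), and the FACIT class at 33.6 and 35.8 hid opposite differences of its members.

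The sequences upstream of 4 expressed collagens are shown because 3 of these genes, Col3a1, Col11a1 and Col6a2, were higher in supportive ISEMFs while Col6a3, whose chain joins that of Col6a2, was nearly level. Each is the 250 bases before the start site that RefSeq (GRCm38.p6) gives, read 5′ to 3′ on the strand of the gene, and each was found once in the genome build of the deposited files (mm9, NCBIM37), where no annotated exon overlaps it. RefSeq gives Col6a2 a further start, whose window overlaps an exon and is not shown. Capitals mark the letters of 3 promoter motifs searched on both strands. They are the TATA box (TATAAA), the CCAAT box (CCAAT) and the GC box (GGGCGG), and they do not overlap one another here. The windows lie at chr1:45368133-45368382 (+ strand) for Col3a1, at chr3:113733208-113733457 (+) for Col11a1, at chr10:76086376-76086625 (−) for Col6a2 and at chr1:92740549-92740798 (−) for Col6a3.
Col3a1: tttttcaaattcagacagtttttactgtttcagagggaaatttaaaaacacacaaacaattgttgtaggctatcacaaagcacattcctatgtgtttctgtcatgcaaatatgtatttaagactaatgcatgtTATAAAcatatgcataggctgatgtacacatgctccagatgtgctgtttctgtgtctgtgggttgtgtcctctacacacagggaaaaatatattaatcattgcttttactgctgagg
Col11a1: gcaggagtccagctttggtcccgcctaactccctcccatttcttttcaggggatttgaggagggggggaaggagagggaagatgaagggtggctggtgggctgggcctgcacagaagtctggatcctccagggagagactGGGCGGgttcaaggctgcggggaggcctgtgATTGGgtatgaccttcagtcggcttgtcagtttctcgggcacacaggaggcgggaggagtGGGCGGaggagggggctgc
Col6a2: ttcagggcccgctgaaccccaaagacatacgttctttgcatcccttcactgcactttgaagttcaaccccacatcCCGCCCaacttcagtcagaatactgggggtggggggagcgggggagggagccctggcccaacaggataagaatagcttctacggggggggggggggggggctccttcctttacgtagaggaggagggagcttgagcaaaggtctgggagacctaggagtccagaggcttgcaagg
Col6a3: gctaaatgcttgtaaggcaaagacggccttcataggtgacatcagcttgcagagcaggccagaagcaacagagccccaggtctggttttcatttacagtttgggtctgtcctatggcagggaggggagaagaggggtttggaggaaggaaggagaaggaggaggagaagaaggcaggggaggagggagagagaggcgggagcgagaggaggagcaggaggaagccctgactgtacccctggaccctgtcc

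The Col3a1 window was the poorest in G and C at 35.2%, held no CpG and had TATAAA beginning 117 bases before the start. The Col11a1 window had 62.4% G and C, 7 CpG, GGGCGG at 110 and 19 bases and CCAAT on the opposite strand at 79 bases before the start. The Col6a2 window had 59.2% G and C, 6 CpG and GGGCGG on the opposite strand at 175 bases, and the Col6a3 window had 57.2% G and C, 3 CpG and none of the 3 motifs. None of the motifs was in all 3 shown windows of genes that were higher in supportive ISEMFs, and other higher genes are not shown. Of the 13 expressed collagens with a window, GGGCGG was in those of the higher genes Col11a1, Col18a1, Col1a2, Col6a2 and Col8a1. It was also in those of Col16a1, Col4a2, Col4a5 and Col5a1, which were within 2-fold. CCAAT was likewise in windows of both higher and within 2-fold genes, and TATAAA only in that of Col3a1. RefSeq windows were found for 35 of the 43 collagens, 38 windows in all, and GGGCGG was in 22 of them (57.9%) against 32.7% of 32851 windows of the same length. CCAAT was in 34.2% against 33.9% and TATAAA in 13.2% against 12.4%. Over all 32851 windows the median G and C content was 52.4%. A match of letters describes the window and is not evidence of a bound site.

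Among the fibrillar collagens, the main chains split. Col1a1 and Col1a2 encode the chains of type I collagen, the most abundant protein of connective tissue, and Col3a1 the single chain of type III, which forms thin fibrils in distensible tissues such as the gut. Col1a1 (chromosome 11, 94797538 to 94814356, + strand) was at an RPKM of 317 in supportive and 288 in non-supportive ISEMFs, from 164040 and 144829 reads. Col1a2 (chromosome 6, 4454814 to 4491543, + strand) was at 286 and 41.6, from 329473 and 46515 reads. Col3a1 (chromosome 1, 45368383 to 45406551, + strand) was at 272 and 26.4, from 168090 and 15892 reads. All 3 genes were thus among the top 40 protein-coding genes of the supportive library, at ranks 36, 37 and 39, while among those of non-supportive ISEMFs Col1a1 stood at rank 47, Col1a2 at 562 and Col3a1 at 941. These ranks rest on the deposited lengths, and that of Col1a2 is 16097 bases against 5347 for its longest coding transcript. The ratio was 10.3-fold for Col3a1 (interval 10.1 to 10.4), 6.88-fold for Col1a2 (6.82 to 6.95) and 1.10-fold for Col1a1 (1.09 to 1.11).

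Type V collagen, a minor component that starts fibrils and sets their diameter, moved little. Col5a1 was at an RPKM of 53.7 in supportive and 30.4 in non-supportive ISEMFs, 1.77-fold higher (1.74 to 1.80). Col5a2 was at 27.0 and 32.6, 1.21-fold lower (1.18 to 1.23). Its gene lies tail to tail with Col3a1, 24614 bases away on chromosome 1 with no protein-coding gene between, so these neighbours differed in both the size and the sign of the difference. Col5a3, a less common type V chain, was at 0.587 and 0.662, from 290 and 318 reads.

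Col11a1, a minor fibril chain best known from cartilage that can join type V chains, was at 18.4 in supportive and 3.56 in non-supportive ISEMFs, 5.16-fold higher (4.96 to 5.36). Its cartilage partners were close to the detection floor, with 10 and 33 reads for Col11a2 and 5 and 23 for Col2a1. Chondrocyte markers were low, with a summed RPKM of 1.76 and 0.705, and 1 of 5 reached an RPKM of 1. That gene, Matn3, had 247 and 8 reads, Acan 51 and 0 and Comp 41 and 0, higher in supportive ISEMFs like Col11a1, while Sox9 had 92 and 217 and Matn1 1 and 1. The part of such cells in the Col11a1 difference was not tested. The late-described fibrillar genes Col24a1 and Col27a1 stayed under an RPKM of 1 and were higher in non-supportive ISEMFs, Col24a1 with 5 and 157 reads and Col27a1 with 244 and 986. The 6 expressed fibrillar genes gave 3 calls, all higher, with a median log2 ratio of 1.58.

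**Figure D2:**
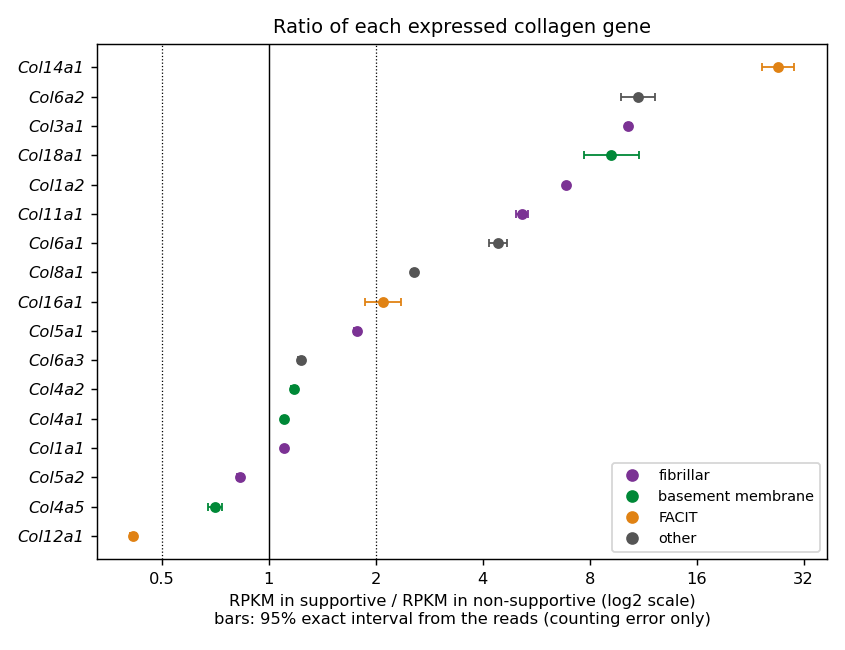
Ratio of RPKM in supportive over non-supportive ISEMFs (log2 axis) for the 17 collagens that reached an RPKM of 1, coloured by class, with bars for the 95% exact interval from the reads and dotted lines at 2-fold. Col14a1 lies farthest right at 27.1, Col12a1 of the same class is the only gene left of the lower dotted line, and Col16a1 at 2.09 has an interval that crosses 2.

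Among the basement membrane collagens, 4 reached an RPKM of 1, and of these Col18a1 was called higher while the type IV chains Col4a1, Col4a2 and Col4a5 were within 2-fold. Col4a1 and Col4a2, whose chains make the common type IV network, lie head to head on chromosome 8, overlapping by 22 bases, and start from a shared region. Col4a1 was at an RPKM of 105 in supportive and 95.3 in non-supportive ISEMFs, 1.10-fold higher (1.09 to 1.12), and Col4a2 at 49.8 and 42.3, 1.18-fold higher (1.16 to 1.20). Col4a5, a chain of the minor type IV networks, was at 5.01 and 7.10, 1.42-fold lower (1.36 to 1.48). The remaining type IV chains were low, with 334 and 155 reads for Col4a6, 189 and 102 for Col4a3 and 29 and 18 for Col4a4.

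Col18a1 encodes a proteoglycan-like collagen of basement membranes whose end fragment is endostatin. It had an RPKM of 1.64 in supportive and 0.178 in non-supportive ISEMFs, from 1314 and 139 reads, 9.19-fold higher (7.71 to 11.02). Its relative Col15a1 had 43 and 84 reads. Col7a1, the anchoring fibril collagen that ties epithelium to stroma, stayed low at 0.237 and 0.847. The median log2 ratio of the 4 expressed basement membrane genes was 0.19.

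The FACIT class held both ends of the range. Col14a1 and Col12a1 encode close relatives, each with large non-collagen domains and a short helix. The Gly-X-Y triplets numbered 78 in each and made 13% of the residues of the Col14a1 product and 7.6% of those of the Col12a1 product. Col14a1 (chromosome 15, 55139305 to 55352358, + strand) was at an RPKM of 18.02 in supportive and 0.665 in non-supportive ISEMFs, from 10433 and 374 reads. Col12a1 (chromosome 9, 79446798 to 79566638, − strand) was at 14.1 and 34.1, from 17830 and 41767 reads. Col14a1 was thus 27.1-fold higher (24.45 to 30.1) and Col12a1 2.41-fold lower (2.37 to 2.45). Within the supportive library the per-length level of Col12a1 was 0.785 of that of Col14a1, and within the non-supportive library it was 51.3 times that of Col14a1, a 65.3-fold change of the ratio.

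Col16a1, a further FACIT gene, was at 1.34 and 0.640, from 879 and 408 reads, 2.09-fold higher (1.86 to 2.36) in plain RPKM but within 2-fold on the log2 scale at 0.96. The other FACIT genes were near the floor. The type IX chains of cartilage had no reads for Col9a1, 1 and 12 for Col9a2 and 9 and 39 for Col9a3. Col9a1 and Col22a1 had no reads in either library, which allows an RPKM of up to 0.00558 and 0.00446 in the supportive library, the level of 3 reads.

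The remaining collagens include Col8a1 and the type VI chains. Col8a1 encodes a short-chain collagen that forms hexagonal networks and is known from vessel walls and the membrane under the corneal endothelium. It was at an RPKM of 376 in supportive and 147 in non-supportive ISEMFs, from 137219 and 52023 reads, 2.56-fold higher (2.54 to 2.59). Its rank by RPKM among all protein-coding genes was 25 and 99, so that by deposited lengths it stood above every other collagen in supportive and below Col1a1 in non-supportive ISEMFs. Its partner Col8a2 had 30 and 0 reads, at least 9.72-fold higher when the empty library is set to 3 reads. The short-chain collagen of hypertrophic cartilage, Col10a1, was just under the level filter, at 0.908 and 0.106, 8.58-fold higher (5.56 to 13.8).

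Type VI collagen assembles from the products of Col6a1, Col6a2 and usually Col6a3 into beaded filaments around cells. Col6a1 was at an RPKM of 18.7 in supportive and 4.25 in non-supportive ISEMFs, 4.40-fold higher (4.15 to 4.67). Col6a2 was at 6.59 and 0.602, from 3940 and 350 reads, 10.9-fold higher (9.805 to 12.2). Col6a1 and Col6a2 lie 85161 bases apart on the same strand of chromosome 10 with no protein-coding gene between them. Col6a3 on chromosome 1 was at 23.0 and 18.7, from 26901 and 21242 reads, 1.23-fold higher (1.21 to 1.25). The neighbours Col6a4, Col6a5 and Col6a6, which can stand in for Col6a3, had 33 and 13, 1 and 2, and 0 and 3 reads. The expressed type VI chains therefore differed between the libraries by unlike factors.

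Chains that assemble together were compared per length within each library, so that library size does not enter. The products of Col1a1 and Col1a2 join as a pair of the former with a single one of the latter. The RPKM ratio of Col1a1 to Col1a2 was 1.11 (1.10 to 1.11) in supportive and 6.93 (6.86 to 7.01) in non-supportive ISEMFs, a 6.25-fold change that does not depend on the lengths. The level of the ratio does depend on them. The deposited length of Col1a2, the union of all its annotated exons, is 16097 bases, and its longest coding transcript is 5347 bases, while Col1a1 has 7230 and 5930. With the longest coding transcript the ratio was 0.449 in supportive and 2.81 in non-supportive ISEMFs. In plain reads it was 0.498 and 3.11.

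Col3a1 and Col1a1 encode chains of separate collagen types. Col3a1 relative to Col1a1 stood at 0.856 in supportive and 0.0917 in non-supportive ISEMFs, a 9.34-fold change. The Col4a1 to Col4a2 ratio, by contrast, was 2.11 and 2.25, with intervals of 2.08 to 2.14 and 2.22 to 2.29. These chains also join as a pair of the former with a single one of the latter. For type V, Col5a1 to Col5a2 was 1.99 and 0.931, a 2.13-fold change. For type VI, Col6a1 to Col6a2 was 2.84 and 7.05, Col6a3 to Col6a1 was 1.23 and 4.40, and Col6a3 to Col6a2 was 3.49 and 31.0, the last an 8.89-fold change. The minor type IV chains Col4a5 and Col4a6 stood at 9.72 and 28.8. Of the pairs named, Col4a1 to Col4a2 differed least between the libraries. Col5a1 to Col5a2 and Col3a1 to Col1a1 were higher in supportive ISEMFs. Col1a1 to Col1a2, Col4a5 to Col4a6 and the type VI pairs were higher in non-supportive ISEMFs.

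**Figure D3:**
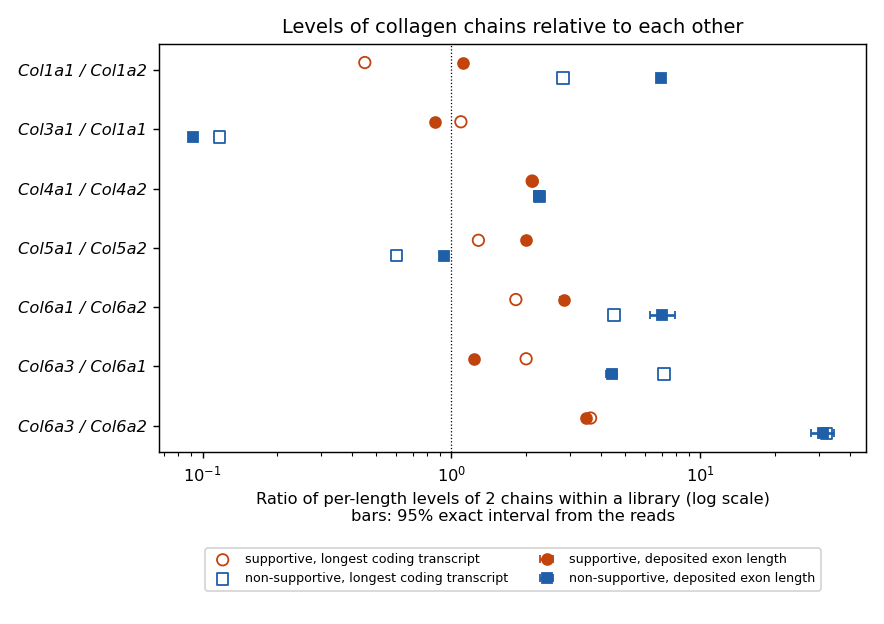
Ratio of the per-length levels of 2 collagen chains within a library (log axis) in supportive (circles) and non-supportive ISEMFs (squares), with filled symbols for the deposited exon lengths and their 95% exact intervals from the reads and open symbols for the longest coding transcript. The Col4a1 to Col4a2 ratios lie together at 2.11 and 2.25, while those of Col1a1 to Col1a2 lie at 1.11 and 6.93.

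The make-up of the collagen transcripts differed accordingly. With the deposited lengths, 5 genes made 84.9% of the summed collagen RPKM in supportive ISEMFs, in the order Col8a1, Col1a1, Col1a2, Col3a1 and Col4a1. In non-supportive ISEMFs, the leading 5 were Col1a1, Col8a1, Col4a1, Col4a2 and Col1a2 and made 79.0%, so that 4 genes were in both. The order depends on gene length, and with the longest coding transcript, as by reads, it was Col1a2, Col3a1, Col1a1, Col8a1 and Col4a1 in supportive ISEMFs. With the deposited lengths, type I took 37.8% in supportive and 42.5% in non-supportive ISEMFs. That direction turned with the length, to 50.4% and 47.1% with the longest coding transcript and 48.4% and 43% by reads. Type III took 17.0% and 3.40% and type IV 10.1% and 18.7% with the deposited lengths, in the same direction by reads at 16.5% and 3.57% and at 7.98% and 16.1%. Type XII took 0.886% and 4.39% and type XIV 1.13% and 0.0855%.

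**Figure D4:**
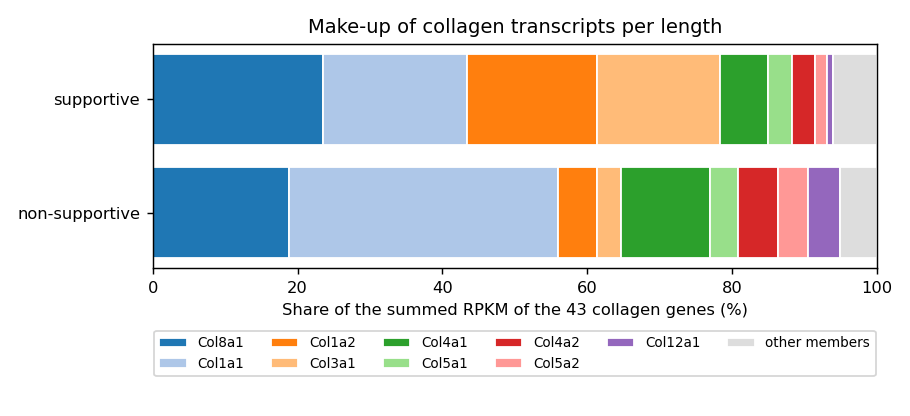
Share (%) of the summed RPKM of the 43 collagen genes taken by each of the 9 genes that reach 2.5% in either library, with the other members in grey, for supportive (top bar) and non-supportive ISEMFs (bottom bar). The Col1a1 segment widens from 19.9% to 37.1% and the Col3a1 segment narrows from 17.0% to 3.40%.

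Of the 26 collagens under an RPKM of 1, 7 had the higher RPKM in supportive and 17 in non-supportive ISEMFs, and 2 had no reads. Among all 7290 protein-coding genes with reads under that level, 44.8% had the higher RPKM in supportive and 55.2% in non-supportive ISEMFs. The counting interval lay wholly above a ratio of 1 for 5 of these collagens and wholly below it for 10, against 20% and 21.8% of the 7290 genes, and it held 1 for 9. Without a level filter, Col7a1, Col19a1, Col24a1 and Col27a1 would join Col12a1 past 2-fold lower and Col10a1 would join the higher genes, names that were picked after their values were seen. That makes 9 higher and 5 lower of 43, against 5.63% and 6.17% of all 22379 protein-coding genes. The levels of these genes did not pass 0.908 in supportive and 0.847 in non-supportive ISEMFs.

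The Gly-X-Y runs and the G and C content of the transcripts were set beside the differences, and other sequence features of the transcripts were not tested. The helix was of nearly one length in the expressed fibrillar products, with a longest run of 338 triplets in Col1a1, Col5a1 and Col11a1, 339 in Col1a2 and Col5a2 and 344 in Col3a1, while their ratios ran from 0.829 to 10.3. Col6a1 and Col6a2 shared a longest run of 87 triplets. The type IV helix was broken into 22 runs in Col4a1 and 23 in Col4a2. Across the 17 expressed genes, Pearson's r was -0.025 and Spearman's rho -0.0049 between the log2 ratio and the G and C content of the longest coding transcript, given as a description since genes are not replicates. Exons of Col5a1 and Col1a1 overlap other genes over 2.5% and 1.66% of their length, those of Col4a2 and Col4a1 over less than 1%, and those of the other 13 expressed collagens not at all.

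The genes that process and bind collagen were read beside the collagens, in order of their roles, from lists holding 78 genes of the table in 8 groups. Of the 60 that reached an RPKM of 1, 19 were higher in supportive ISEMFs by 2-fold and 7 lower, with a median log2 ratio of 0.24. Among all 9110 protein-coding genes at that level, 9.25% were higher and 8.98% lower, and among the 1610 secretory ones 14.2% and 11.8%. The counts of the single groups below stand beside these same shares. All these lists were chosen with earlier results of these data known, so the counts describe the lists only. The enzymes inside the cell were mostly level. Among the 10 expressed genes of prolyl hydroxylation, the step that makes the helix stable, 9 were within 2-fold and Leprel2, a prolyl 3-hydroxylase, was higher at an RPKM of 3.91 and 1.39, with a group median of 0.02. All 5 expressed genes of lysyl hydroxylation and glycosylation were within 2-fold, with a median of 0.15. Of 8 expressed genes of folding and export, Creb3l1, a transcription factor of the endoplasmic reticulum that drives collagen genes, was higher at 13.2 and 4.87, and the collagen chaperone Serpinh1 was at 193 and 247, with a median of 0.14.

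Genes acting on collagen outside the cell were split within their groups. Of 6 expressed genes of propeptide removal, the N-proteinase Adamts2 was higher at 16.8 and 1.53 (log2 ratio 3.37) and the C-proteinase enhancer Pcolce at 22.7 and 7.69 (1.55). The tolloid proteinase Tll1 was lower at 3.53 and 122 (-5.07), and Bmp1, the main C-proteinase, was within 2-fold at 8.91 and 12.3. Cross-linking enzymes divided evenly. Lox itself was at 153 and 152, Loxl1 and Loxl3 were higher with log2 ratios of 1.52 and 1.20, and Loxl2 and Loxl4 were lower with -1.36 and -1.13. The most abundant differing one was Loxl2, at 51.1 and 131.5.

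The group of receptors and uptake had the largest median, 1.38 over 6 expressed genes. Itga11 and Itga1, integrin chains that bind collagen, were at 61.3 and 6.53 (log2 ratio 3.21) and at 11.9 and 2.77 (2.06). Mrc2, which takes up collagen fragments, was at 20.9 and 2.57 (2.97). Their common partner Itgb1 went the other way at 272 and 658 (-1.28), and the collagen-sensing kinase Ddr2 was within 2-fold at 46.6 and 28.5.

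Fibril organizers had 6 of 9 expressed genes higher and none lower, with a median of 1.06. Fmod, a small proteoglycan that binds type I fibrils, was at 3.49 and 0.0218 from 824 and 5 reads, Aebp1 at 92.3 and 19.7 and Thbs2 at 55.7 and 14.0. Dcn and Lum, of the same proteoglycan family as Fmod, were at 124 and 46.6 and at 11.75 and 5.59, and Postn, which helps cross-linking, at 85.1 and 41.6. The non-collagen proteins Fn1 and Sparc were abundant and near level, at 1087 and 850 and at 1698 and 1599.

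The breakdown group held 4 higher, 3 lower and 4 within among 11 expressed genes, with a median of 0.04. The proteinases Mmp16, bound to the membrane, and Mmp2, a gelatinase, were higher at 21.4 and 3.95 and at 68.5 and 22.6, as was the inhibitor Timp3 at 123 and 51.0. The secreted collagenases Mmp13 and Mmp8 and the gelatinase Mmp9 were lower, with 4 and 806, 2 and 198, and 0 and 387 reads. These last 3 genes moved with the macrophage markers, whose sums are given above, and the part of such cells in them was not tested.

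**Figure D5:**
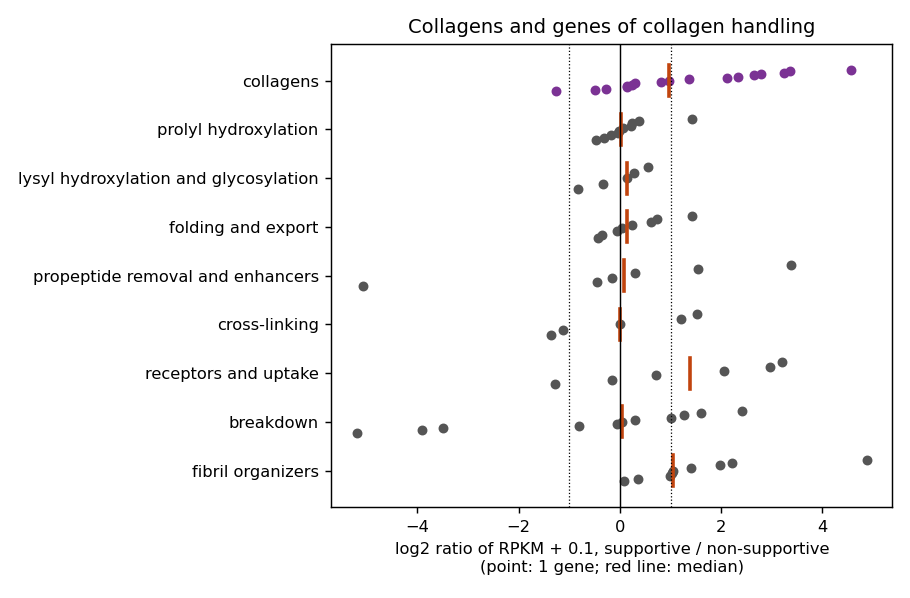
Log2 ratio of RPKM + 0.1, supportive over non-supportive ISEMFs, of each collagen and of each gene of 8 groups of collagen handling that reached an RPKM of 1, with a red line at the median of each group and dotted lines at 2-fold. The medians of the collagens (0.96), the receptors (1.38) and the fibril organizers (1.06) lie near or past the upper dotted line, and those of the hydroxylation, export, trimming, cross-linking and breakdown groups lie between 0.00 and 0.15.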

How the data were processed

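RNA of 1 library of supportive and 1 of non-supportive ISEMFs was sequenced. The authors aligned the reads to mm9 with TopHat2 2.0.4, as named in the submitters' processing notes, using Ensembl genes, and counted them with HTSeq 0.5.4p3, dropping reads without a unique gene. The deposited counts are unnormalized whole numbers. The RPKM the authors deposited is that count divided by the union length of the exons and the library size, which the values place at 71463423 and 69449374 reads. The deposited gene length is in bases. Strand use and the Ensembl release are not given in the sources used here. The authors' own fold and DESeq p-value columns, and a shorter table of Wnt genes, were not used.

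Collagen genes were taken by symbol. Log2 ratios used a pseudocount of 0.1, a minimum RPKM of 1 in either library and, for calls, a 2-fold difference. With 1 library per population no test between populations was made. Intervals are exact (Clopper-Pearson, 95%) and cover counting error only, and an empty library was set to 3 reads. Positions, transcripts and G and C content came from GENCODE annotation of NCBIM37, where 3 of the 43 collagens have the deposited exon length. Promoter windows of 250 bases came from RefSeq. Mitochondrial ribosomal RNA made 13.5% and 7.13% of the reads on genes. The members, gene lists and alternatives were chosen with earlier results of these data known. Every collagen with an RPKM of at least 1 was named, and lower ones where they complete a chain set. Other low collagens were named outside this rule, among them Col7a1, Col10a1, Col15a1, Col19a1, Col22a1, Col24a1 and Col27a1. Of each list of collagen handling, the genes past 2-fold were named, at most 6, with any gene that the background needs. Of the list of further genes with a collagen-like helix, every gene past 2-fold was named. Alternatives changed the pseudocount, level filter, threshold, scaling (edgeR 4.0.16 TMM factors of 0.984 and 1.02, DESeq2 1.42.0 size factors of 1 and 1) and gene length. Only the ratio and its interval were tested on simulated data. Those counts held counting error alone, so the spread between cultures was not covered. Python 3.11.15, pandas 2.3.3, scipy 1.17.1 and R 4.3.3 were used.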

Additional observations from a re-analysis of the deposited data

How the results depend on the processing

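With 1 library per population no replicate could be left out, and no paired analysis was possible because each population has 1 library. Across pseudocounts of 1 and 0.001, a minimum RPKM of 5, TMM and DESeq2 scaling, a median log2 ratio set to 0 and a library size without mitochondrial ribosomal RNA, 7 to 9 collagens were 2-fold higher in supportive ISEMFs and 1 lower. Over the 102 log2 ratios of the 17 expressed collagens under the 6 pseudocount and scaling alternatives, none changed sign and 1 gene, Col16a1, crossed 2-fold, with 0.51 at a pseudocount of 1 and 1.06 at 0.001. Leaving out mitochondrial ribosomal RNA moved the median of all protein-coding genes by 0.12, the largest shift of any scaling.

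Without a minimum RPKM, 9 collagens were higher and 5 lower, against 5.63% and 6.17% of all protein-coding genes, and the median log2 ratio over all 43 was 0.00. At 4-fold, 7 were higher and 0 lower. The collagen share of protein-coding RPKM, 1.32% and 0.594%, was 2.01% and 0.897% as a share of reads on genes, and 1.01% and 0.373% without the highest collagen of each library. The Col1a1 to Col1a2 ratio, 1.11 and 6.93, was 0.449 and 2.81 with the longest coding transcript and 0.498 and 3.11 in reads, so in supportive ISEMFs the side of 1 depends on the length used. The expressed collagens had at least 1287 reads over both libraries, and the spread between replicates is unknown. The type I share of collagen RPKM, 37.8% and 42.5%, turned direction with the longest coding transcript (50.4% and 47.1%) and by reads (48.4% and 43%), alternatives chosen after seeing the data.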

Other observations

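Genes not taken by the symbol rule that carry a collagen-like helix, in a list of 30 genes, went mostly the other way. Of the 10 that reached an RPKM of 1, 6 were lower in supportive ISEMFs, 2 higher and 2 within 2-fold, with a median log2 ratio of -3.28. Among all 9110 protein-coding genes at that level, 8.98% were lower and 9.25% higher. This list too was chosen with earlier results of these data known, so its counts are a description only. The scavenger receptors Marco and Msr1 had 0 and 1025 and 8 and 2158 reads in supportive and non-supportive ISEMFs. The complement chains C1qa and C1qb had 0 and 152 and 0 and 296 reads, at least 52.1-fold and 101.5-fold lower at 3 reads. These 4 genes are known from macrophages, whose markers were also higher in the non-supportive library, and the part of such cells was not tested.

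The other differing genes of the list are secreted or membrane proteins of connective tissue and blood. C1qtnf3 was at an RPKM of 0.769 and 9.72 and Cthrc1, a secreted protein of injured and remodelling tissue, at 0.0972 and 1.55. The 2 higher genes, named after their values were seen, were Colec12, a scavenger receptor of vessels and stroma, at 30.9 and 9.55, and Colec11, a soluble lectin, at 1.85 and 0.156.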
